A study of Mus musculus with 18 samples.

Results

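The genes described here are 10 components of the hypoxia-inducible factor (HIF) system, measured in mouse lung tumours and control lung. They are the oxygen-regulated subunits Hif1a, Epas1 and Hif3a, their partner Arnt, the prolyl hydroxylases Egln1, Egln2 and Egln3, the asparaginyl hydroxylase Hif1an, the ubiquitin ligase component Vhl, and Ankrd37, an ankyrin repeat gene known as a HIF target. Each member was found by its symbol in the platform annotation, among probe sets that carry only that symbol, and was represented by its probe set with the highest mean over all arrays. All 10 members were measured, of 18193 genes in all, on 28 probe sets. No measured difference between groups entered the choice of probe set, and no filter on low values was applied. The members, and the lists of other genes used below, were chosen with earlier results of these data known.

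RNA came from B6C3F1/N mice, a cross of inbred strains that is standard in cancer bioassays. Per the labels' protocols the mice, aged 5 to 6 weeks at the start, breathed an aerosol of cobalt metal at 1.25 mg/m3, 2.5 mg/m3 or 5 mg/m3, or none, for 6 hours on each of 5 days per week, over as long as 105 weeks. The groups, with 6 arrays each, were lung tumours of mice exposed to cobalt metal (cobalt tumours), lung tumours labelled as spontaneous (spontaneous tumours), and lung of vehicle control mice (control lung). All groups share the strain, no group carries an engineered allele, and the labels give the cobalt concentration, the sex and the age at sampling for no single array. Nor do they name the mouse behind an array. The p-values therefore measure only the spread between these arrays, which may be technical. Tumours were dissected from the lung around them, whereas control lung is whole tissue, which limits it as a counterpart of tumour cells.

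HIF is a transcription factor made of an oxygen-regulated alpha subunit and the constitutive beta subunit ARNT. In oxygenated cells the EGLN enzymes, which need iron and oxygen, hydroxylate prolines of the alpha subunit, and the VHL complex then marks it for destruction. HIF1AN hydroxylates an asparagine and so blocks the binding of coactivators. With little oxygen, or with cobalt ions, which are widely used to mimic hypoxia because they interfere with these iron enzymes, the alpha subunit persists and activates genes of glycolysis, of blood vessel growth and of its own feedback control, EGLN3 among them. Arrays measure RNA, so neither the stability of HIF protein nor the activity of the hydroxylases was measured here.

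The lung origin of the arrays was visible in the surfactant genes of alveolar type 2 cells. Sftpc, surfactant protein C, had a mean log2 level of 15.12 ± 0.07 in cobalt tumours, 14.98 ± 0.40 in spontaneous tumours and 14.91 ± 0.05 in control lung (SD, n = 6 each). Some arrays stood apart. Cobalt tumour 6 had a score of -31.42 on the first principal component (50.8% of the variance), between the other tumours at 24.57 to 82.33 and control lung at -94.63 to -87.49. Spontaneous tumours 2 and 6 lay apart from the rest on the second component, at scores of 88.02 and 77.17. Control 6 is described in free text as a spontaneous tumour but is a control by its title, source and group label, and it was kept as a control. Its nearest array was control 5, with a correlation of 0.9963 across probe sets. They were the closest pair of all arrays, with an SD of the log2 difference of 0.1826, against 0.2701 for the next pair. An Xist level above 10 was seen in 4 of 6 cobalt tumours, 2 of 6 spontaneous tumours and 6 of 6 control arrays, so the balance of the sexes may differ between the groups.

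In both kinds of tumour, RNA for Hif1a, Egln3, Ankrd37 and Vhl was higher, and RNA for Epas1 lower, than in control lung. Against control lung, 5 of the 10 members changed in cobalt tumours, 4 higher and 1 lower, and 6 changed in spontaneous tumours, 5 higher and 1 lower, the sixth being Egln1. Calls are those of limma, a linear model with a variance shared across genes, at a Benjamini-Hochberg adjusted p below 0.05 over all 18193 genes. Among all genes 34% were called in cobalt tumours and 34.6% in spontaneous tumours, so a count of 5 or 6 in 10 is to be read against about 3 or 4 in 10 at the background. By direction, 14.7% of all genes were called higher and 19.3% lower in cobalt tumours, and 16.4% higher and 18.2% lower in spontaneous tumours. A change of at least 2-fold was called for 4 members in each tumour group, the same 4 genes, against 11.5% of all genes in cobalt tumours and 10.9% in spontaneous tumours. The median log2 difference over the members was 0.32 in cobalt tumours and 0.15 in spontaneous tumours, beside -0.03 over all genes in both. Both comparisons share the 6 control arrays, so their likeness is not independent evidence. Leaving out cobalt tumour 6 and control 6 together left the same counts of 4 members higher and 1 lower in cobalt tumours.

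**Figure D1:**
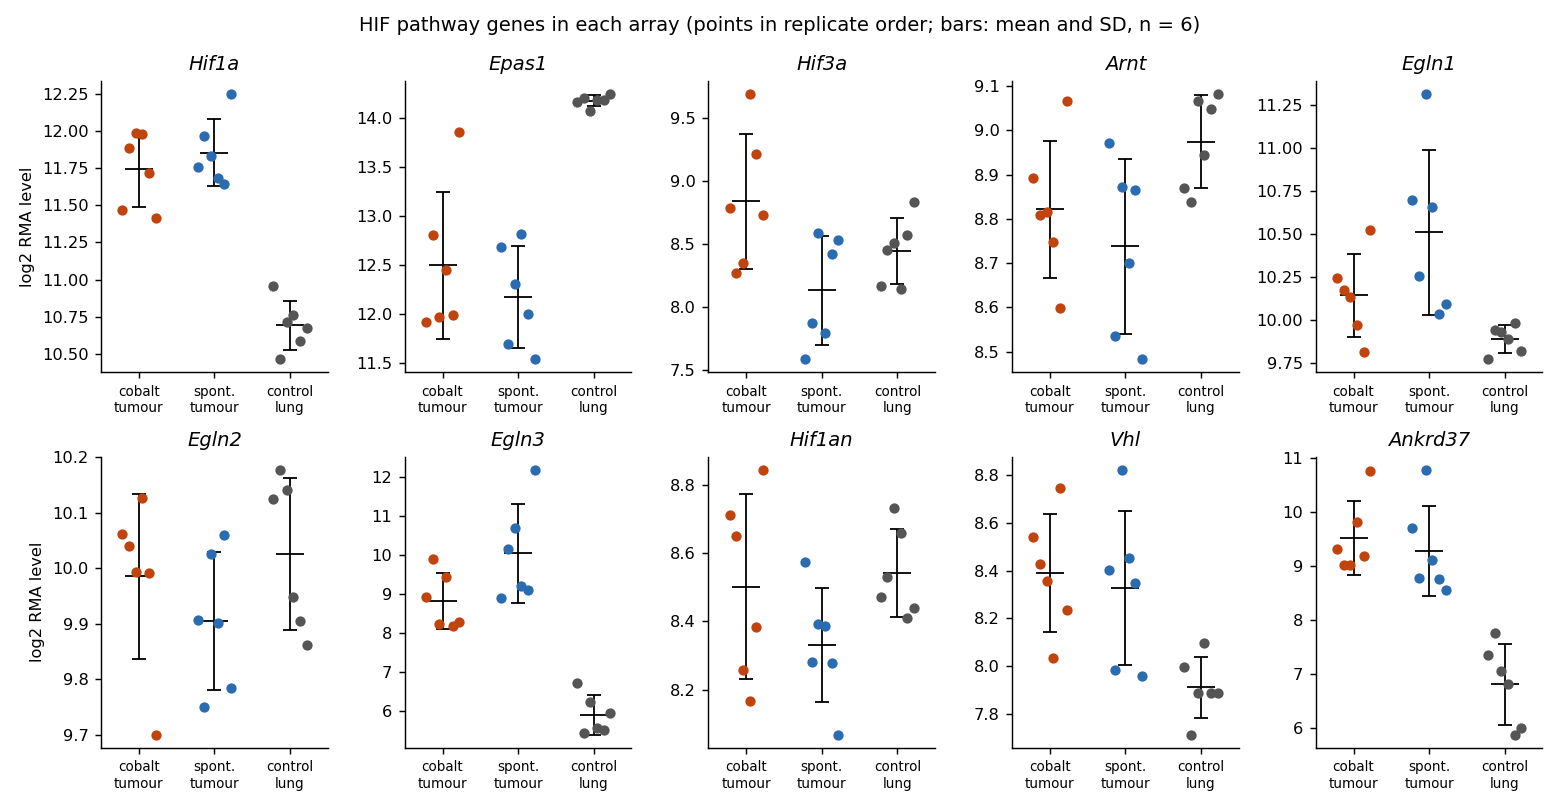
Log2 level (vertical axis, deposited RMA values) of each of the 10 members on every array, with cobalt tumours at the left, spontaneous tumours in the middle and control lung at the right of each panel. Points are arrays and bars are the mean and SD of 6 arrays. Hif1a, Egln3 and Ankrd37 lie higher in every tumour than in every control, Epas1 lies lower, and the other members overlap in at least 1 tumour group.

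Hif1a, the subunit that responds to low oxygen in nearly all cell types, was at about 2-fold its control level in tumours. Its log2 level had a minimum, median and maximum of 11.42, 11.80 and 11.99 in cobalt tumours, 11.64, 11.79 and 12.25 in spontaneous tumours, and 10.47, 10.69 and 10.96 in control lung. Every tumour lay above every control. Groups were likewise free of overlap for 18.9% of all genes in cobalt tumours (8.1% higher, 10.8% lower) and for 21.1% in spontaneous tumours (9.21% higher, 11.9% lower). Among the members they were so for 4 in cobalt tumours, 3 higher and 1 lower, and for 5 in spontaneous tumours, 4 higher and 1 lower. Hif1a rose by a log2 difference of 1.05 ± 0.12 (SE) in cobalt tumours, which is 2.07-fold (limma adjusted p = 6.775e-06), and by 1.16 ± 0.12 in spontaneous tumours, which is 2.237-fold (limma adjusted p = 2.585e-06). All 4 Hif1a probe sets were called higher in each tumour group. They covered log2 differences of 0.54 to 1.22 in cobalt tumours and 0.71 to 1.76 in spontaneous tumours, the smallest on the dimmest of them, in a fit over all probe sets with 1 symbol.

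Epas1 encodes HIF-2α, which is abundant in the endothelium of the lung, and it was the member that fell. Its log2 level had a minimum, median and maximum of 11.92, 12.22 and 13.85 in cobalt tumours, 11.54, 12.15 and 12.82 in spontaneous tumours, and 14.08, 14.19 and 14.24 in control lung. No tumour reached the lowest control, and cobalt tumour 6 came closest. The SD of the control arrays was 0.06, against 0.75 among cobalt tumours and 0.52 among spontaneous tumours. Epas1 fell by 1.68 ± 0.29 on the log2 scale in cobalt tumours, which is 3.205-fold (limma adjusted p = 0.0002092), and by 2.00 ± 0.29 in spontaneous tumours, which is 4.011-fold (limma adjusted p = 4.177e-05). Without cobalt tumour 6 the log2 difference in cobalt tumours was -1.95 (limma adjusted p = 1.766e-06). The second, dimmer Epas1 probe set gave a larger fall, 5.455-fold in cobalt tumours and 6.512-fold in spontaneous tumours. The brighter one lies near the top of the scale, where the highest value was 15.26, and whether its signal saturates was not tested.

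Markers of endothelial cells moved with Epas1. Of 20 endothelial genes, 20 were called lower in cobalt tumours and 19 in spontaneous tumours. Their median log2 difference was -2.68 in cobalt tumours and -2.64 in spontaneous tumours. Of all genes, 19.3% were called lower in cobalt tumours and 18.2% in spontaneous tumours, with a median of -0.03 in both. Pecam1, an adhesion molecule of endothelial junctions, fell 7.976-fold in cobalt tumours and 8.431-fold in spontaneous tumours. The mean log2 level of the endothelial list per array was 7.93 to 10.26 in cobalt tumours, 8.14 to 9.44 in spontaneous tumours and 11.20 to 11.58 in control lung. Cobalt tumour 6, with the highest Epas1 level of any tumour, also had the highest endothelial mean. Alveolar type 1 markers were lower for 8 of 10 genes in each tumour group, and their mean level of 11.95 in cobalt tumour 6 lay within the control range of 11.91 to 12.37. Alveolar type 2 markers, in contrast, were higher for 7 of 11 genes and lower for 1 in cobalt tumours, and higher for 5 in spontaneous tumours. The shares of all genes called higher were 14.7% in cobalt tumours and 16.4% in spontaneous tumours. RMA values have no true zero, so no marker can be called absent. In bulk tissue fewer endothelial cells and less Epas1 RNA per cell cannot be told apart, and the part of these cell types in the Epas1 result was not tested.

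**Figure D2:**
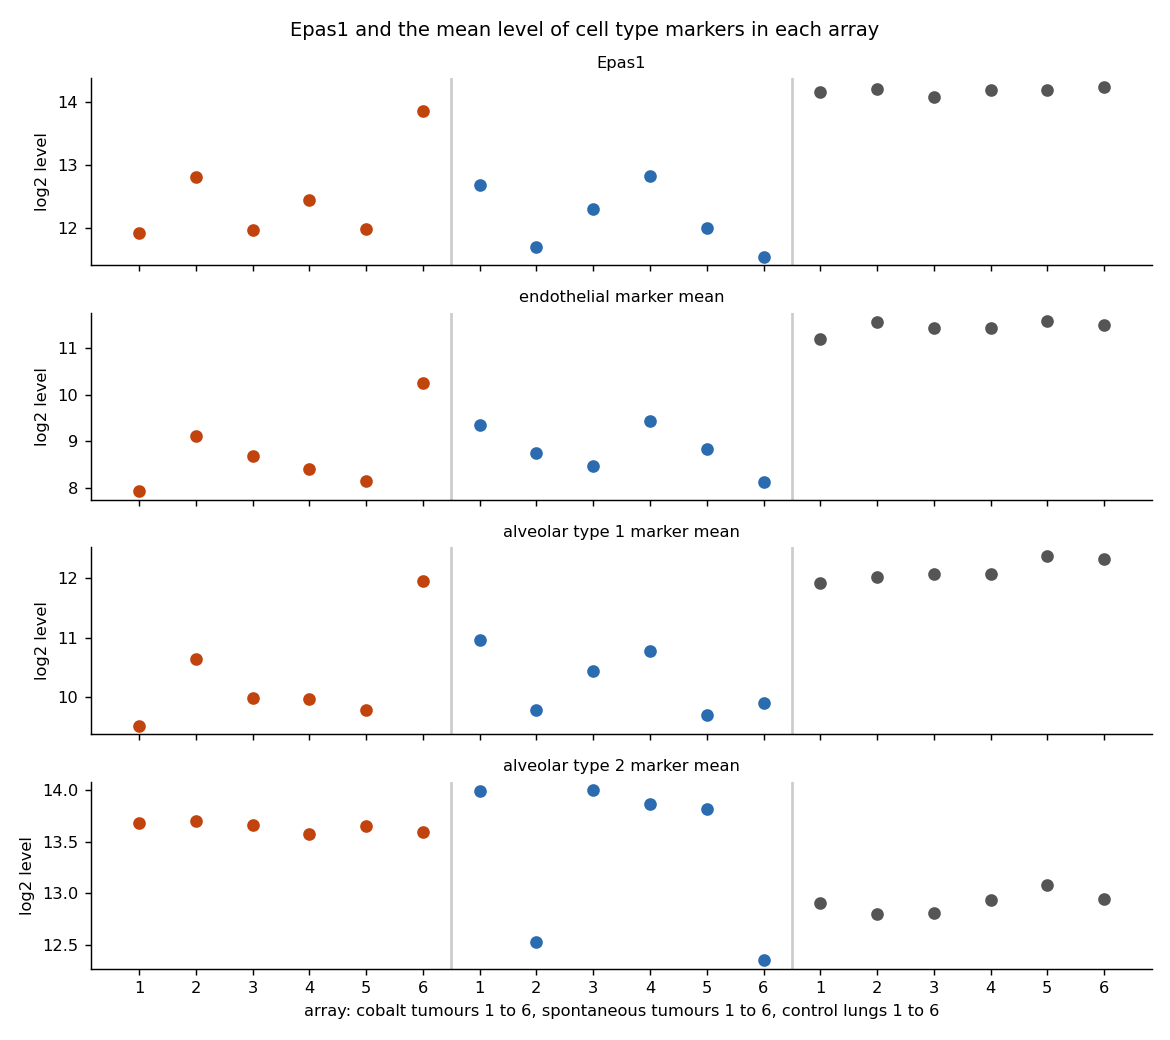
Log2 level (vertical axes) of Epas1 in the top panel, and mean log2 level of endothelial, alveolar type 1 and alveolar type 2 markers in the panels under it, on each of the 18 arrays (horizontal axis), with cobalt tumours at the left, spontaneous tumours in the middle and control lung at the right. Cobalt tumour 6 has the highest Epas1 level (13.85) and the highest endothelial mean (10.26) of the tumours, and spontaneous tumours 2 and 6 have the lowest alveolar type 2 means (12.52 and 12.35).

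Hif3a, whose products include short forms that restrain the other alpha subunits, did not pass the test on its main probe set in either comparison with control lung. Log2 levels had a minimum, median and maximum of 8.27, 8.76 and 9.69 in cobalt tumours, 7.59, 8.15 and 8.59 in spontaneous tumours, and 8.14, 8.48 and 8.83 in control lung. All groups overlapped, with cobalt tumours 4 and 5 the highest arrays. The log2 difference from control lung was 0.39 in cobalt tumours (95% interval -0.09 to 0.88, limma adjusted p = 0.2108) and -0.31 in spontaneous tumours (95% interval -0.80 to 0.18, limma adjusted p = 0.3214).

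Other probe sets of Hif3a gave another picture in cobalt tumours. Of its 6 probe sets 2 were called higher there, and none was called in spontaneous tumours. The probe set 1446708_at ranged over 5.93 to 7.57 in cobalt tumours and 5.23 to 5.63 in control lung, a log2 difference of 1.10 (limma adjusted p = 0.001217 over all probe sets with 1 symbol). The probe set 1459052_at ranged over 5.35 to 7.36 in cobalt tumours and 4.87 to 5.24 in control lung, a log2 difference of 1.06 (limma adjusted p = 0.008424 in the same fit). Cobalt tumours lay above every control on both, although both are dim and their background is unknown. Which transcripts of Hif3a each probe set reads was not analysed here.

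Arnt, the shared beta subunit, did not pass the test. It averaged 8.82 ± 0.16 in cobalt tumours, 8.74 ± 0.20 in spontaneous tumours and 8.97 ± 0.11 in control lung (SD, n = 6 each). The log2 difference was -0.15 in cobalt tumours (limma adjusted p = 0.2352) and -0.24 in spontaneous tumours (95% interval -0.44 to -0.04, limma adjusted p = 0.06163). None of its 5 probe sets was called in either comparison. The call in spontaneous tumours lay close to the threshold and was made when cobalt tumour 6 was left out (adjusted p = 0.04731) and when spontaneous tumour 1 was left out (adjusted p = 0.02917).

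**Figure D3:**
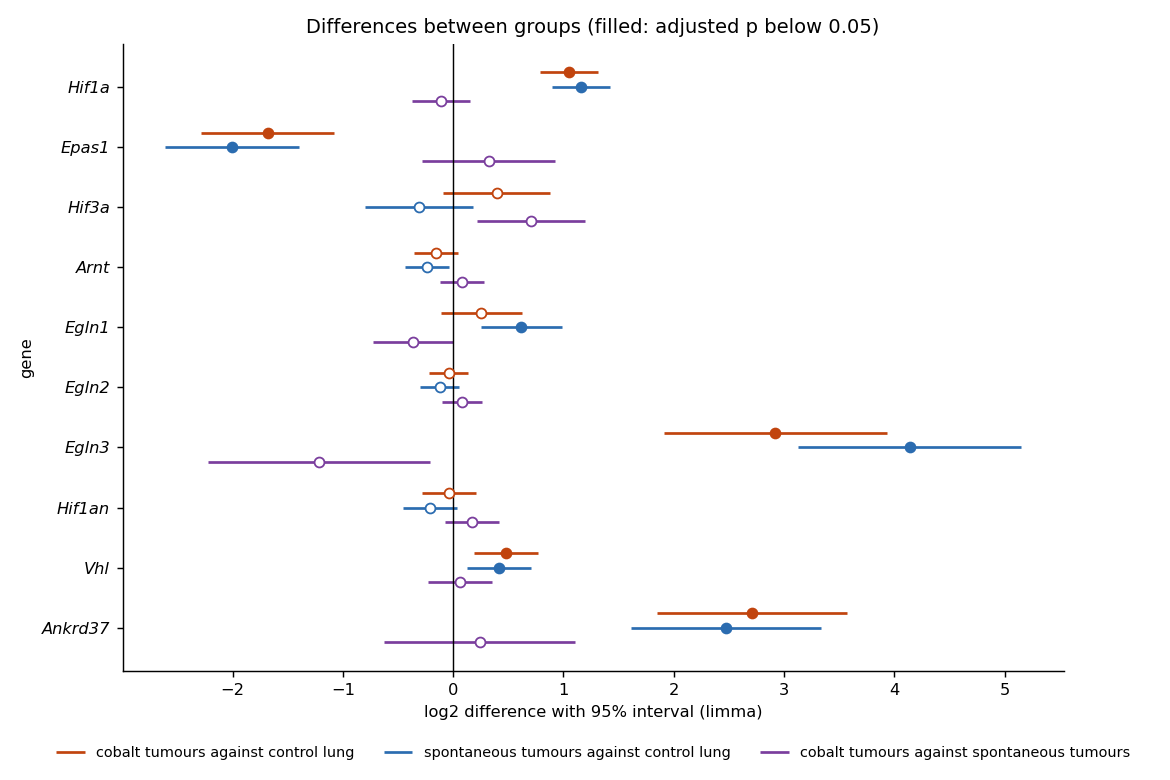
Log2 difference (horizontal axis) with its 95% interval for each member in the comparisons of cobalt tumours with control lung, spontaneous tumours with control lung, and cobalt with spontaneous tumours, from 1 limma fit over 18 arrays. Filled points passed an adjusted p of 0.05: 5 members in the first comparison, 6 in the second and 0 in the third.

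The prolyl hydroxylase genes and Ankrd37 are shown with the stretch before their start. Egln1, Egln3 and Ankrd37 are known targets of HIF, which binds the core ACGTG or GCGTG. Egln2 is set beside them as a prolyl hydroxylase gene that did not pass the test. The asparaginyl hydroxylase gene Hif1an, which did not pass it either, is not printed. Sequences are the 250 bases before the annotated start in RefSeq, build GRCm38.p6, 5′ to 3′ on the strand of the gene, for 4 of the 9 members that had such a window. Capitals mark ACGTG and GCGTG on either strand, so that CACGT and CACGC are their reverse forms.
Egln1, chr8:124949255-124949504, minus strand: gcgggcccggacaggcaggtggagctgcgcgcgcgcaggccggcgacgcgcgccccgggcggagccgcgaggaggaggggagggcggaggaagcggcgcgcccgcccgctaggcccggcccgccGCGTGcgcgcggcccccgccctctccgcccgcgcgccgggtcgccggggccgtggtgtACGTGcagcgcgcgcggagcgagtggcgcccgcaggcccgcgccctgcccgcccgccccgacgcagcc
Egln2, chr7:27166803-27167052, minus strand: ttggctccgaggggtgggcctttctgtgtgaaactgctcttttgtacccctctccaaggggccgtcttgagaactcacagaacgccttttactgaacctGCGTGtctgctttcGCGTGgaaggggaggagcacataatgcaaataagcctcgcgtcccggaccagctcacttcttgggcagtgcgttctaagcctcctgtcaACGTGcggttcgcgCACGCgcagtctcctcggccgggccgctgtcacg
Egln3, chr12:54203875-54204124, minus strand: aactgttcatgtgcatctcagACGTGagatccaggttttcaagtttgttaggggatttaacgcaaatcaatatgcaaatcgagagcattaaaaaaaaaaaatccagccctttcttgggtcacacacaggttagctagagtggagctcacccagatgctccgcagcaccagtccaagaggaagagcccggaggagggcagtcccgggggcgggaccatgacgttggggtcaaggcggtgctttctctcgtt
Ankrd37, chr8:45999851-46000100, minus strand: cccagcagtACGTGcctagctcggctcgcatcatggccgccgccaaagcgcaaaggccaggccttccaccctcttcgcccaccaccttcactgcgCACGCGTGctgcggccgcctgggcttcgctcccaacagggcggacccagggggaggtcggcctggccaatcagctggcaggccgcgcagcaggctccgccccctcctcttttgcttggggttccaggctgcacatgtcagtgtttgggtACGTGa
Egln1 holds 1 ACGTG and 1 GCGTG. Egln2, which has 2 windows in the table and is shown with 1 of them, holds 1 ACGTG and 3 GCGTG. Egln3 holds a single ACGTG, its first base 229 bases before the start. Ankrd37 holds 2 of each, and a forward and a reverse GCGTG overlap. Of the other members, Hif1a holds 3 ACGTG, counting the palindrome CACGTG on both strands, Hif3a holds 2 GCGTG, Arnt holds 1 GCGTG, and neither core is in the windows of Hif1an and Vhl. In all, 7 of 9 members hold at least 1 core, whereas 16.6% of 32851 windows in the same table hold ACGTG, 28.2% hold GCGTG and 38.6% hold either. A match of these letters is a description and shows no binding.

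Egln3, the hydroxylase most strongly induced by HIF in many cell types, had the largest difference of the members. Its log2 level had a minimum, median and maximum of 8.19, 8.61 and 9.92 in cobalt tumours, 8.90, 9.70 and 12.19 in spontaneous tumours, and 5.46, 5.76 and 6.74 in control lung. Every tumour lay above every control, and the highest was spontaneous tumour 6. Egln3 rose by a log2 difference of 2.92 ± 0.48 (SE) in cobalt tumours, which is 7.577-fold (limma adjusted p = 0.0001465), and by 4.14 ± 0.48 in spontaneous tumours, which is 17.6-fold (limma adjusted p = 5.561e-06). Spontaneous tumours 2 and 6, with the lowest alveolar type 2 marker means, had Egln3 levels of 10.18 and 12.19, and spontaneous tumour 3, with the highest marker mean (13.99), had 10.71. Without spontaneous tumour 6 the log2 difference in spontaneous tumours was 3.71. The second Egln3 probe set was also called higher, by 2.36 in cobalt tumours (5.12-fold) and 3.09 in spontaneous tumours (8.528-fold). Egln3 was dim in control lung, with a mean of 5.91 on the main probe set, below the lowest array median of 6.32. The background at such levels is unknown, so the size of the fold is uncertain.

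Egln1, the enzyme that holds HIF-1α low in most normal cells, was called higher in spontaneous tumours only, a difference between tumour groups that did not pass its own test. Log2 levels had a minimum, median and maximum of 9.82, 10.16 and 10.52 in cobalt tumours, 10.04, 10.46 and 11.31 in spontaneous tumours, and 9.78, 9.91 and 9.99 in control lung. Every spontaneous tumour and 4 of 6 cobalt tumours lay above every control. The log2 difference was 0.25 in cobalt tumours (95% interval -0.11 to 0.62, limma adjusted p = 0.2874). Egln1 rose by 0.62 ± 0.17 (SE) in spontaneous tumours, which is 1.534-fold (limma adjusted p = 0.01024). Both Egln1 probe sets were called in spontaneous tumours, the dimmer with a log2 difference of 0.85. Spontaneous tumour 3 held the highest value of the group, and without it the log2 difference was 0.46 (adjusted p = 0.01495). The call was lost with the level of Y-linked RNA as a covariate (adjusted p = 0.07521) and among arrays with high Xist only (adjusted p = 0.06631). The latter setting kept only 2 spontaneous tumours beside 6 control arrays, and sex-linked RNA was unevenly spread over the groups. Why calls were lost under these settings, here and below, was not tested.

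Egln2, another prolyl hydroxylase, and Hif1an, the asparaginyl hydroxylase, did not pass the test. Egln2 averaged 9.99 ± 0.15 in cobalt tumours, 9.90 ± 0.12 in spontaneous tumours and 10.03 ± 0.14 in control lung (SD, n = 6 each). Its log2 difference was -0.04 in cobalt tumours (95% interval -0.22 to 0.14) and -0.12 in spontaneous tumours (95% interval -0.30 to 0.06). Hif1an averaged 8.50 ± 0.27 in cobalt tumours, 8.33 ± 0.17 in spontaneous tumours and 8.54 ± 0.13 in control lung (SD, n = 6 each). Its log2 difference was -0.04 in cobalt tumours (95% interval -0.28 to 0.20) and -0.21 in spontaneous tumours (95% interval -0.45 to 0.03). None of the 3 Hif1an probe sets was called.

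Vhl, the part of the ligase that recognises hydroxylated alpha subunits, was modestly higher in tumours. Log2 levels had a minimum, median and maximum of 8.03, 8.39 and 8.75 in cobalt tumours, 7.96, 8.38 and 8.82 in spontaneous tumours, and 7.71, 7.89 and 8.10 in control lung. The groups overlapped, with 5 of 6 cobalt tumours and 4 of 6 spontaneous tumours above every control. Vhl rose by a log2 difference of 0.48 ± 0.14 (SE) in cobalt tumours, which is 1.393-fold (limma adjusted p = 0.01222), and by 0.42 ± 0.14 in spontaneous tumours, which is 1.334-fold (limma adjusted p = 0.02717). The call rests on 1 of its 2 probe sets, since the other gave log2 differences of 0.10 in cobalt tumours and 0.25 in spontaneous tumours and was not called. In spontaneous tumours it was also lost when control 2, spontaneous tumour 3 or spontaneous tumour 4 was left out, with adjusted p of 0.06206, 0.06533 and 0.05492, under the settings for sex-linked RNA, with adjusted p of 0.1018 and 0.2096, and by the exact permutation test, with an adjusted p of 0.05448.

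Ankrd37 rose in both tumour groups and spread widely in all of them. Its log2 level had a minimum, median and maximum of 9.02, 9.25 and 10.77 in cobalt tumours, 8.56, 8.95 and 10.79 in spontaneous tumours, and 5.89, 6.94 and 7.77 in control lung. Every tumour lay above every control, and the lowest controls were 5 and 6. Ankrd37 rose by a log2 difference of 2.71 ± 0.41 (SE) in cobalt tumours, which is 6.54-fold (limma adjusted p = 6.861e-05), and by 2.47 ± 0.41 in spontaneous tumours, which is 5.542-fold (limma adjusted p = 0.0001606). The highest arrays were cobalt tumour 6 and spontaneous tumour 3, and without cobalt tumour 6 the log2 difference in cobalt tumours was 2.46. It has 1 probe set, so no second one could be set beside it.

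**Figure D4:**
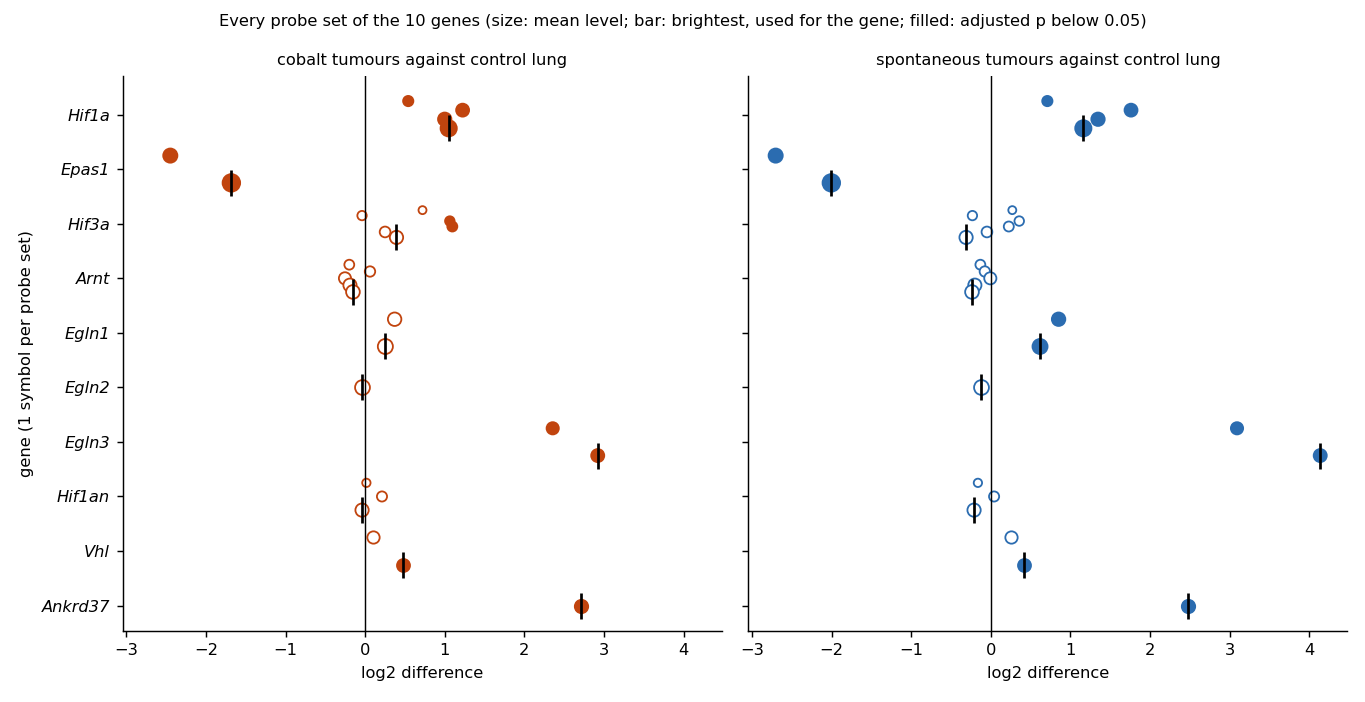
Log2 difference (horizontal axis) of each of the 28 probe sets of the members in the comparison of cobalt tumours with control lung and of spontaneous tumours with control lung. Filled points were called at an adjusted p of 0.05 over all probe sets with 1 symbol, the size of a point follows its mean level, and a black bar marks the probe set that stands for the gene. All 4 Hif1a, both Epas1 and both Egln3 probe sets were called in both comparisons, and 2 of 6 Hif3a probe sets in cobalt tumours.

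Between the tumour groups no member passed the test. Of all genes 0.0824% were called in that comparison, 15 genes, and 0.616% had groups that did not overlap, against 0 members by either measure. At an unadjusted p under 0.05 there were 2 of 10 members, beside 11.6% of all genes, and an exact two-sided permutation test, adjusted over all genes, called 0. Hif3a was higher in cobalt than in spontaneous tumours by a log2 difference of 0.71 (95% interval 0.22 to 1.19), with an unadjusted limma p of 0.007182 and an adjusted p of 0.2343. On Hif3a, 4 of 6 cobalt tumours lay above every spontaneous tumour, and all 6 probe sets had a positive difference. None of the 6 was called, several are dim, and they read the same arrays, so their shared sign is not independent evidence. Egln3 was lower in cobalt tumours by a log2 difference of -1.22 (95% interval -2.22 to -0.21), with an unadjusted limma p of 0.02094 and an adjusted p of 0.3226. Without spontaneous tumour 6 that difference was -0.79. For Egln1 the difference was -0.36 (95% interval -0.73 to 0.00), for Epas1 0.32 (95% interval -0.28 to 0.93), for Ankrd37 0.24 (95% interval -0.62 to 1.10) and for Hif1a -0.11 (95% interval -0.37 to 0.15). These intervals leave room for differences in either direction for Epas1, Ankrd37 and Hif1a, and a p above the threshold does not show that the tumour groups are alike.

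Among listed HIF targets, most genes of glucose uptake and glycolysis were higher in tumours. The part of HIF, of cell types or of cell division in these rises was not tested. Of 17 listed genes measured, 12 rose and 0 fell in each tumour group, with a median log2 difference of 1.01 in cobalt tumours and 1.34 in spontaneous tumours. Over all genes, 14.7% were called higher and 19.3% lower in cobalt tumours, and 16.4% higher and 18.2% lower in spontaneous tumours. The median over all genes was -0.03 in both. Hk2, a hexokinase, which carries out the opening step, rose 5.964-fold in cobalt tumours (limma adjusted p = 4.8e-07) and 4.414-fold in spontaneous tumours. The aldolase Aldoc rose 5.21-fold in cobalt tumours and 6.505-fold in spontaneous tumours. Tpi1, triosephosphate isomerase, rose 3.972-fold in cobalt tumours and 4.219-fold in spontaneous tumours, and Ldha, which makes lactate, rose 2.666-fold in cobalt tumours and 3.619-fold in spontaneous tumours. The glucose transporter Slc2a1 rose 3.643-fold in cobalt tumours (limma adjusted p = 0.002495) and 3.894-fold in spontaneous tumours (limma adjusted p = 0.001726).

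Other HIF targets divided in direction. Of 29 measured, 10 rose and 5 fell in cobalt tumours (median log2 difference 0.23), and 12 rose and 5 fell in spontaneous tumours (median 0.42). Beside them, 14.7% of all genes were called higher and 19.3% lower in cobalt tumours. In spontaneous tumours those shares were 16.4% and 18.2%. Bhlhe40, a transcriptional repressor, rose 5.283-fold in cobalt tumours and 5.944-fold in spontaneous tumours. Kdm3a, a histone demethylase, rose 4.717-fold in cobalt tumours and 2.456-fold in spontaneous tumours, and Cited2, which competes with HIF for its coactivators, rose 3.505-fold in cobalt tumours and 4.026-fold in spontaneous tumours. Hmox1, the haem oxygenase that oxidative stress also induces, rose 3.306-fold in cobalt tumours (limma adjusted p = 0.0001064) and 3.136-fold in spontaneous tumours. The adenylate kinase Ak4 rose 2-fold in cobalt tumours and 4.436-fold in spontaneous tumours. Some rises lost their calls under the settings for sex-linked RNA. In spontaneous tumours these were Ndrg1, Ero1a, Higd1a and Tfrc with Y-linked RNA as a covariate. Their limma adjusted p were 0.139, 0.058, 0.07543 and 0.05566. Among arrays with high Xist only, Ero1a and Higd1a were not called (limma adjusted p = 0.05078 and 0.07359). In cobalt tumours Tfrc was not called with the covariate (limma adjusted p = 0.0701).

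The targets that fell in each tumour group were Edn1, Angptl4, Plod2, Lox and Vegfa. Edn1, the endothelial peptide endothelin, fell 5.228-fold in cobalt tumours and 8.031-fold in spontaneous tumours. Angptl4, an angiopoietin-like secreted protein, fell 3.637-fold in cobalt tumours and 2.613-fold in spontaneous tumours. The collagen-modifying enzymes Plod2 and Lox fell 3.478-fold and 3.392-fold in cobalt tumours, and 2.437-fold and 3.708-fold in spontaneous tumours. These are falls of group means, and not every tumour was lower. Cobalt tumour 6 was at 11.05 for Edn1 and 11.06 for Lox, within the control ranges of 9.88 to 11.56 and 9.97 to 11.09. Spontaneous tumour 6 was at 10.41 for Plod2, above the highest control at 10.40. Spontaneous tumour 2 was at 10.34 for Angptl4, within the control range of 9.92 to 10.70. Vegfa, the main angiogenic growth factor, fell 2.012-fold in cobalt tumours (limma adjusted p = 0.000365) and 1.899-fold in spontaneous tumours (limma adjusted p = 0.0007902). In spontaneous tumours the calls of Plod2, Lox and Angptl4 were lost with Y-linked RNA as a covariate (limma adjusted p = 0.5118, 0.1537 and 0.1983) and among arrays with high Xist only (limma adjusted p = 0.6707, 0.1899 and 0.06595), which left 2 targets lower against 5. In cobalt tumours the call of Lox was lost among arrays with high Xist only (limma adjusted p = 0.06883). Fibroblast markers were called lower for 8 of 12 genes in each tumour group and higher for 2 in spontaneous tumours, beside the endothelial markers above. Of all genes 19.3% were called lower in cobalt tumours and 18.2% in spontaneous tumours. The part of fibroblasts and endothelial cells in the falls was not tested. Car9, the carbonic anhydrase often used as a hypoxia marker, did not pass the limma test, with log2 differences of 0.52 in cobalt tumours (limma adjusted p = 0.5354) and 1.21 in spontaneous tumours (limma adjusted p = 0.1145). All 6 spontaneous tumours and 5 of 6 cobalt tumours nevertheless lay above every control, and the exact two-sided permutation test passed in both, with an adjusted p of 0.03988 in cobalt tumours and 0.01024 in spontaneous tumours. Car9 levels were 6.12 to 7.25 in cobalt tumours, 6.49 to 7.15 in spontaneous tumours other than number 6, which was at 11.09, and 6.11 to 6.35 in control lung.

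**Figure D5:**
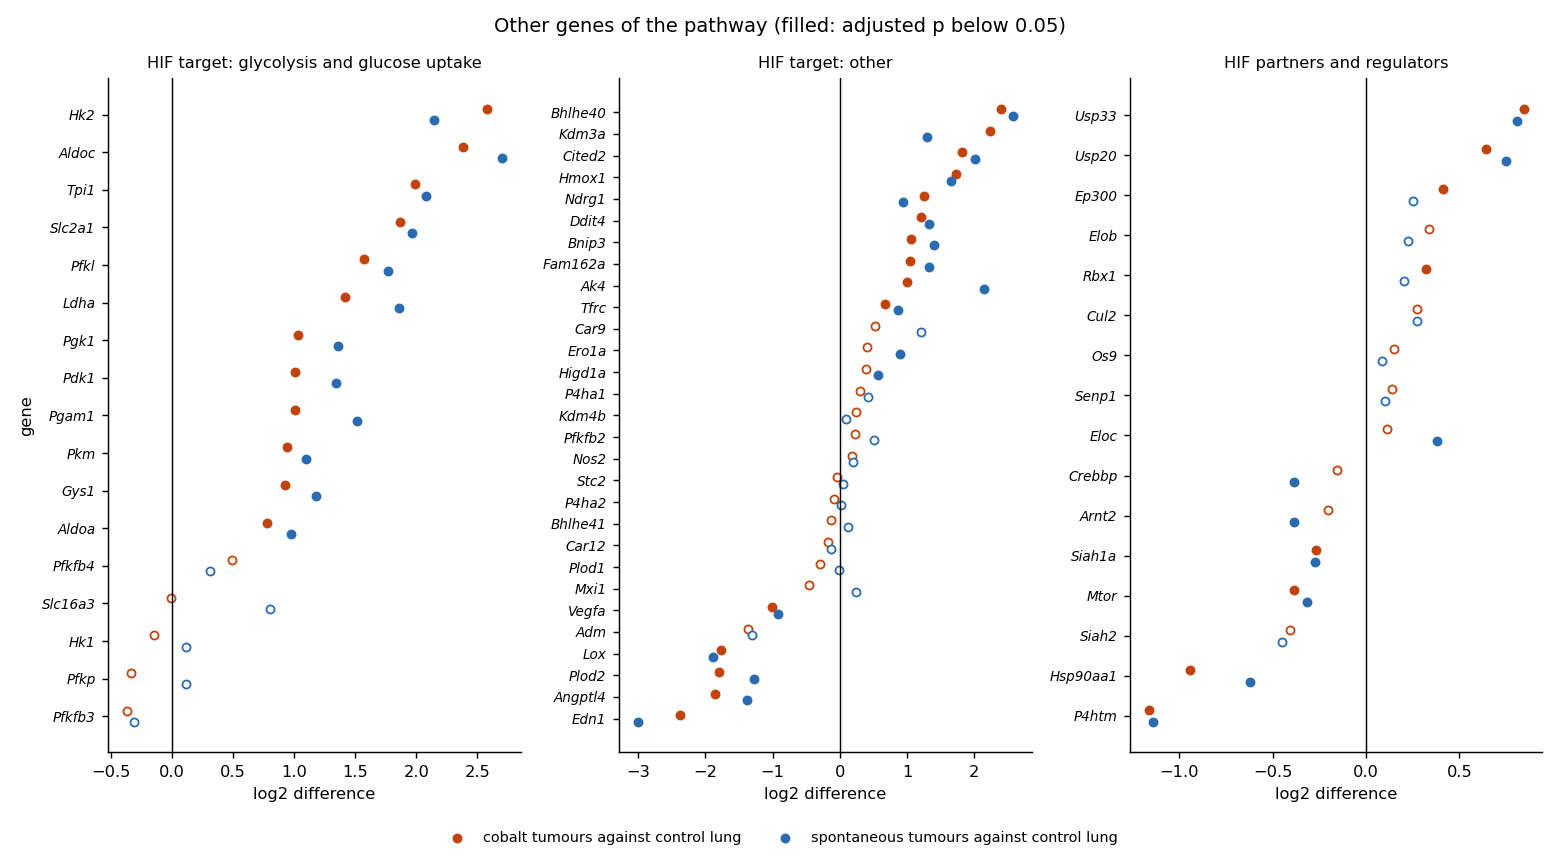
Log2 difference from control lung (horizontal axis) of the measured genes of the HIF lists, for cobalt tumours and spontaneous tumours, with 1 point per gene and filled points where the adjusted p was below 0.05. Of the 17 glycolysis genes 12 are called higher and 0 lower in each tumour group, whereas the other targets hold genes called in both directions.

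Partners and regulators of HIF moved in both directions and mostly by small amounts. Of 16 measured, 4 rose and 4 fell in cobalt tumours (median log2 difference 0.13), and 3 rose and 6 fell in spontaneous tumours (median 0.09). Shares over all genes were 14.7% higher and 19.3% lower in cobalt tumours, and 16.4% higher and 18.2% lower in spontaneous tumours. Whether these 16 genes differ from all genes in their calls was not tested. Usp33 and Usp20, deubiquitinases that act on HIF system proteins, had log2 differences of 0.84 and 0.64 in cobalt tumours and of 0.81 and 0.75 in spontaneous tumours, all called. P4htm, a transmembrane prolyl hydroxylase, fell 2.239-fold in cobalt tumours and 2.202-fold in spontaneous tumours. The chaperone Hsp90aa1 fell by 0.94 on the log2 scale in cobalt tumours and by 0.62 in spontaneous tumours. The coactivator Ep300 rose by a log2 difference of 0.41 in cobalt tumours (limma adjusted p = 0.01838), and the difference of 0.25 in spontaneous tumours was not called (limma adjusted p = 0.1403). Crebbp, a related coactivator, had a log2 difference of -0.15 in cobalt tumours that was not called (limma adjusted p = 0.2166) and fell by 0.39 in spontaneous tumours (limma adjusted p = 0.003325). Partners lower in spontaneous tumours numbered 3 with Y-linked RNA as a covariate and 1, P4htm, among arrays with high Xist only, against 6, and the call of Hsp90aa1 was lost in both settings while that of Crebbp was lost among arrays with high Xist only. Between cobalt and spontaneous tumours no gene of the 3 lists was called.

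Across the 12 tumour arrays, the genes whose log2 levels followed those of the members most closely were taken from 12127 genes that were not among the 6065 dimmest of all genes. They are a description of these arrays, which include cobalt tumour 6 and spontaneous tumours 2 and 6, and carry no test. Those nearest Egln3 were Polr2d (Pearson r = 0.89), a subunit of RNA polymerase II, the integrin Itga5 (r = 0.87), Pdss2 (r = 0.86), the glycolytic enzyme Pfkl (r = 0.85) and the phosphoglucomutase Pgm1 (r = 0.85). Nearest Epas1 were Dgkh (r = 0.93), the cytokine receptor Lifr (r = 0.93), the splicing regulator Mbnl1 (r = 0.92), Ldb2 (r = 0.92) and the amino acid transporter Slc38a5 (r = 0.91). Nearest Hif3a were Mkrn2 (r = 0.88), the amino acid transporter Slc1a7 (r = 0.87), Get4 (r = 0.87), the mineralocorticoid receptor Nr3c2 (r = 0.86) and Slc22a15 (r = 0.85). Hif1a was followed most closely by the translation factor Eif3m (r = 0.95), Fkbp3 (r = 0.92), Trmt10a (r = 0.91), Rnf4 (r = 0.90) and Fggy (r = 0.88). For Ankrd37 they were the stress gene Ppp1r15a (r = 0.95), Smg1 (r = 0.93), Trak1 (r = 0.89), Vamp2 (r = 0.89) and Trgv4 (r = 0.89).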

How the data were processed

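RNA of 18 lung and lung tumour samples was measured on 1-colour Affymetrix mouse 3′ expression arrays, 1 array a sample, from 100 ng of total RNA, per the labels' protocols. The log2 values deposited by the authors came from RMA, per the submitters' processing notes, which name no version or setting of it. RMA usually includes quantile normalization, which can hide a shift of all genes. The lowest value was 3.34, the highest 15.26, and array medians were 6.32 to 6.45. Values were used as deposited, without pseudocount, filter or detection calls, so the background of dim probe sets is unknown. The number of arrays limits the precision.

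Of 45101 probe sets, 64 were controls, 34945 had 1 symbol in the platform annotation, 932 several and 9160 none, and only those with 1 symbol were used. Symbols were checked through Entrez identifiers against RefSeq (34741 matched, 0 changed). A gene was represented by its probe set with the highest mean, which left 18193 genes.

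Samples were grouped by titles, sources and group labels. In R 4.3.3, limma 3.58.1 (lmFit, eBayes) was fitted once over the 18 arrays with group as the only factor, with two-sided tests adjusted by Benjamini-Hochberg over all genes, and probe sets were fitted likewise. The authors' design text names another program, ORIOGEN, which was not run. Simulated data had 18193 genes, each with the same spread in every group, and 100 genes changed by 1 log2 unit and 100 by 2. Of these, 82% and 97% were recovered. In the real data far more genes were called and spreads differed between groups, so these shares are not the power of the real comparisons. The numbers in the sample titles were not used as pairs, since deviations of same-numbered arrays correlated above 0.1 in 1 of 6, 0 of 6 and 1 of 6 pairs. Alternatives were another normalization, a filter on dim genes, the mean of all probe sets, other eBayes options, array weights, the 12 arrays compared alone, a replicate block, sex-linked RNA, exact permutation over 924 assignments, and arrays left out.

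The members and the 12 lists (3 of the pathway, 9 of cell type markers, with 12 of 177 entries not matched) were chosen with earlier results of these data known. Named genes were the members, up to 4 called genes each way per pathway list and comparison, Vegfa, Slc2a1, Car9 and Hmox1, and the 5 genes closest to each of Egln3, Epas1, Hif3a, Hif1a and Ankrd37; not all eligible list genes are printed. Pecam1, Sftpc, Xist, Ndrg1, Ero1a, Higd1a and Tfrc were named outside that rule.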

Additional observations from a re-analysis of the deposited data

Results flagged for a closer look

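Of the 30 groups of 6 values (10 members in 3 groups), 1 held an array far from the others. Egln2 had a log2 level of 9.70 in cobalt tumour 6, while the other cobalt tumours lay at 9.99 to 10.13, a gap of 0.684 of the range of the group. Chance alone marks about 1 group in 20, and no difference of Egln2 between groups was called with or without that array.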

How the results depend on the processing

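The calls of Hif1a, Epas1, Egln3 and Ankrd37 against control lung kept their direction and their side of the threshold under all 31 alternatives. Counts of members and listed genes that moved by over 1.5 times follow, and the causes were not tested. In cobalt tumours against control lung, 2 members were lower with array weights, against 1, and 1 glycolysis gene was lower with array weights and with the mean of all probe sets, against 0. In spontaneous tumours against control lung, 2 members were lower with cyclic loess, array weights or only arrays with high Xist, against 1, the second being Arnt. Members higher there numbered 3 with Y-linked RNA as a covariate or with high Xist arrays only, against 5, with Egln1 at adjusted p of 0.07521 and 0.06631 and Vhl at 0.1018 and 0.2096. Other HIF targets lower numbered 2 under both of these settings, against 5, and partners lower 3 with the Y-linked covariate and 1 with high Xist arrays, against 6. Partners higher numbered 5 with the mean of all probe sets, against 3. Between tumours, 1 other HIF target was higher without cobalt tumour 6 and control 6, against 0. With 1 array left out at a time, glycolysis genes lower in cobalt tumours numbered 0 to 1, members lower in spontaneous tumours 1 to 2, and other HIF targets higher between tumours 0 to 1.

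Member differences that changed sign were past the threshold in no setting. They were, in cobalt tumours against control lung, Hif1an at 0.063 (mean of probe sets) and Egln2 at 0.044 (array weights), with ranges of -0.11 to 0.028 and -0.074 to 0.016 when 1 array was left out. In spontaneous tumours against control lung it was Hif3a at 0.043 (mean of probe sets). In cobalt against spontaneous tumours they were Arnt at -0.017 and Vhl at -0.041 (mean of probe sets), Epas1 at -0.028, Vhl at -0.018 and Ankrd37 at -0.18 (array weights), Ankrd37 at -0.0095 (without cobalt tumour 6 and control 6), and Hif1a at 0.014, Arnt at -0.030, Vhl at -0.12 and Ankrd37 at -0.07 (without spontaneous tumours 2 and 6). With 1 array left out, Vhl ranged over -0.011 to 0.16 and Ankrd37 over -0.01 to 0.54. With the mean of all probe sets, Vhl in cobalt tumours was not called (log2 difference 0.29, adjusted p = 0.07776) and Hif3a was (0.58, adjusted p = 0.03386). The replicate number as a block changed no call of a member in 30 results; it left 1 gene called between tumours, against 15. That count ran from 1 to 82 with 1 array left out (82 without cobalt tumour 6) and was 65 without spontaneous tumours 2 and 6.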

Other observations

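Kdm3a, a histone demethylase that is a known HIF target, came closest of the listed HIF genes to a difference between the tumour groups, and it is named here after its values were seen. It averaged 11.85 ± 0.41 in cobalt tumours, 10.91 ± 0.43 in spontaneous tumours and 9.61 ± 0.10 in control lung (SD, n = 6 each). Its log2 difference between cobalt and spontaneous tumours was 0.94 (limma adjusted p = 0.06548). Without cobalt tumour 6 it was 1.07 and passed the threshold (limma adjusted p = 0.02068), as it did without spontaneous tumour 3 (1.06, limma adjusted p = 0.03789) or spontaneous tumour 4 (1.02, limma adjusted p = 0.04227).

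Cell cycle markers were higher for 1 of 11 genes in cobalt tumours and for 11 of 11 in spontaneous tumours. Their median log2 differences were 0.60 in cobalt tumours and 1.97 in spontaneous tumours, and 0 of them were called between the tumour groups. The cobalt tumours were divided in the mean log2 level of this list. Cobalt tumours 4 and 6 were at 5.53 and 5.46, below the lowest control at 5.81. Cobalt tumours 1, 2, 3 and 5 lay above the highest control at 6.296, as did every spontaneous tumour. The count of 1 in cobalt tumours therefore does not describe each of them. Macrophage markers were higher for 5 of 13 genes and lower for 1 in cobalt tumours, and higher for 9 in spontaneous tumours. Heart muscle markers were lower for 8 of 8 genes, and ciliated cell markers for 9 of 9, in each tumour group. Smooth muscle and pericyte markers were lower for 7 of 9 and higher for 1 in each. These counts are of calls, beside 14.7% of all genes called higher and 19.3% lower in cobalt tumours. In spontaneous tumours the shares of all genes were 16.4% higher and 18.2% lower. Whether any of these lists differs from all genes was not tested.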
